A study of Mus musculus with 4 samples.

Results

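The genes described here are 8 mouse genes that encode enzymes of NADPH production and of the pentose phosphate pathway: Idh1, Idh2, Me1, G6pdx, Pgd, Tkt, Taldo1 and Nnt. They were taken by gene symbol from a count table of 28595 genes, and each had 1 row there. NADPH is the reduced cofactor that supplies electrons for building fatty acids and cholesterol, for regenerating glutathione and thioredoxin, and for the cytochrome P450 enzymes that make steroids. In Leydig cells, which lie outside the seminiferous tubules and make testosterone, each hydroxylation and side-chain cleavage on the way from cholesterol to the hormone uses NADPH. Idh1 (cytosolic) and Idh2 (mitochondrial) encode NADP-dependent isocitrate dehydrogenases, and Me1 encodes cytosolic malic enzyme. G6pdx and Pgd encode the NADPH-forming dehydrogenases of the oxidative branch of the pentose phosphate pathway. Tkt and Taldo1 encode the transketolase and transaldolase of the non-oxidative branch, which make no NADPH but return pentoses to glycolysis. Nnt encodes the mitochondrial transhydrogenase that makes NADPH from NADH.

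RNA was counted in mouse testis sections of 10 µm by photo-isolation chemistry, in which ultraviolet light releases blocked cDNA ends so that the irradiated area alone is amplified. There were 4 groups of 3 libraries: wild-type and H3t knockout (KO) testis, each with the whole section irradiated and with irradiation limited to Leydig cells. H3t is a testis histone H3 variant, and the series sets out to profile testes in which sperm formation is disrupted. Wild-type mice are called young in their titles. The labels used here state no age for the knockout mice, no strain, and not whether replicate libraries stem from different animals. The p-values therefore measure the spread between these libraries, which may be technical. The 3 libraries of a group formed 1 library pool, so pool and group cannot be told apart.

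Entire sections gave 247539 to 566527 counts per library, and Leydig-targeted libraries gave 5947 to 54882. The lowest total belonged to wild-type Leydig-targeted replicate 3, which also had the largest share of mitochondrial counts (8.76%). The deleted gene itself had 1 count in 1 of 12 libraries, so it could not check the genotype labels. Spermatid markers made up 2.64 to 5.07% of wild-type section counts and 0.00459 to 0.0783% of knockout section counts, and spermatocyte markers 0.301 to 0.380% and 0.0115 to 0.0138%. Leydig cell markers (8 genes, among them Star, Cyp11a1 and Cyp17a1) made up 0.196 to 0.417% of wild-type sections, 1.60 to 2.14% of knockout sections, 0.824 to 1.45% of wild-type Leydig-targeted libraries and 3.29 to 4.01% of knockout Leydig-targeted libraries. The wild-type Leydig-targeted libraries still held 1.31 to 2.63% spermatid marker counts. In bulk libraries of this kind, fewer cells of a type and less RNA per cell cannot be told apart.

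Together the 8 genes made up 0.0649% ± 0.0171 (SD, n = 3) of all counts in wild-type sections and 0.273% ± 0.0491 in knockout sections. In Leydig-targeted libraries they made up 0.0710% ± 0.0114 in wild type and 0.369% ± 0.0725 in the knockout. The levels below are library-scaled counts (CPM, the count divided by the library total and scaled up). Fold changes are differences on the log2 scale with their standard error (SE), from edgeR's robust quasi-likelihood test in 1 fit of all 12 libraries, and adjusted p-values are Benjamini-Hochberg values over the 5182 genes tested. Idh1, Idh2, Me1, G6pdx, Tkt and Taldo1 passed the expression filter, and Pgd and Nnt did not. The filter asked for about 66.1 CPM in at least 3 libraries. Idh2, Tkt and Taldo1 reached it in knockout libraries alone, and G6pdx in the knockout and 1 wild-type library, so these 4 passed through the group where they were high and their count of calls is partly set by the filter. All 6 tested genes were higher in knockout than in wild-type sections at an adjusted p under 0.05, where 22.6% of all tested genes were higher and 39.1% were lower. When libraries were scaled to their Leydig marker counts instead, none of the 6 was called in sections and the differences of Me1, G6pdx, Tkt and Taldo1 fell below 0. With limma-trend on log2 CPM, Idh1 alone of the 6 was called in sections (adjusted p = 0.0248), and the other adjusted p-values ran from 0.0530 for Me1 to 0.462 for G6pdx. In Leydig-targeted libraries Idh1, Me1 and Tkt were higher in the knockout, 3 of 6, where 7.55% of all tested genes were higher and 20.9% lower. Without wild-type Leydig-targeted replicate 3, the shallowest library, all 6 were called in sections and Idh1 (3.39, adjusted p = 9.37e-05) and Me1 (1.67, adjusted p = 0.00853) in Leydig-targeted libraries.

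**Figure D1:**
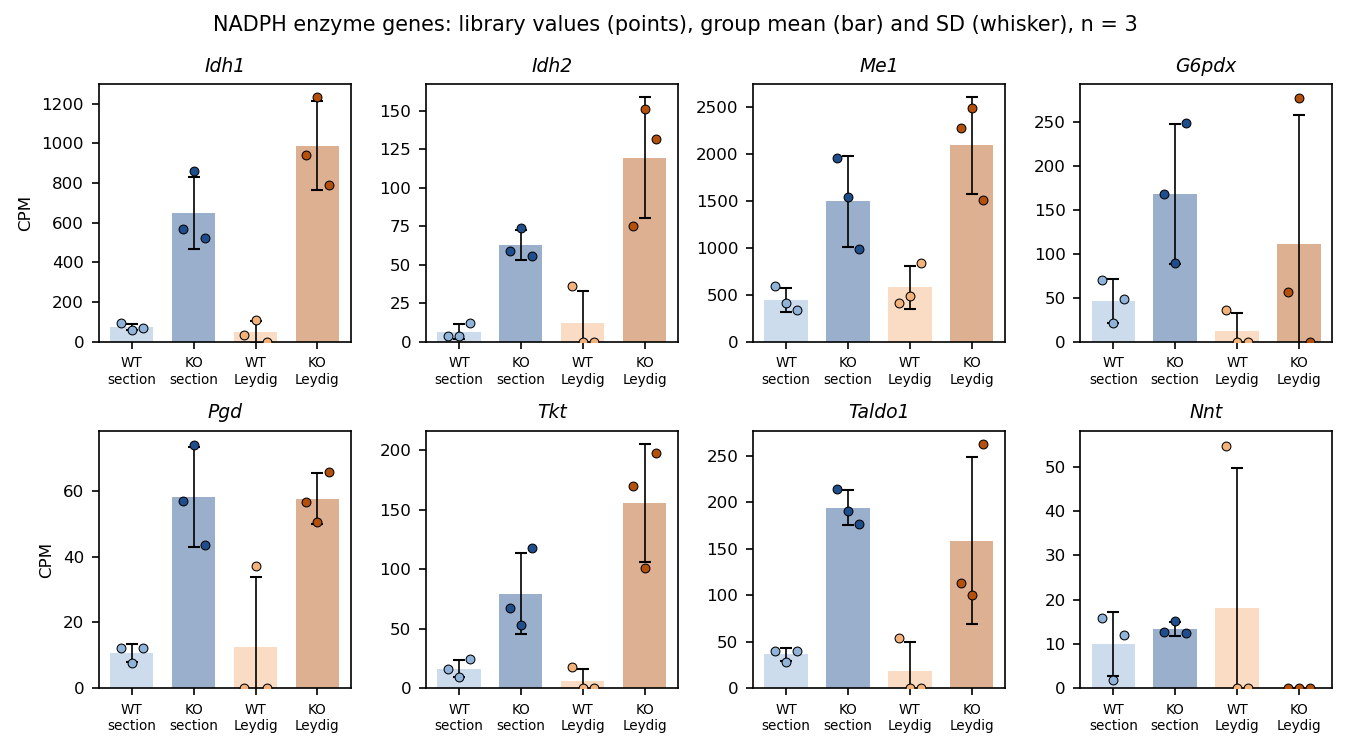
Level of each of the 8 genes in CPM, on its own linear axis from 0, in the 4 groups; points are libraries, bars are group means and whiskers are 1 SD (n = 3), which stop at 0 where the SD is larger than the mean. In entire sections the knockout points lie above all wild-type points for every gene except Nnt. The share of all genes that separate in this way was not computed. Of all tested genes, 22.6% were called higher in knockout sections.

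Short stretches from promoter windows are shown for Me1, G6pdx and Pgd. A window of each holds the letters of the antioxidant response element core, the sequence that the transcription factor NRF2 binds in genes of NADPH supply. Promoters were RefSeq's on GRCm38.p6, from 250 bases before to 50 bases after a gene's start. They were present for 7 of the 8 genes, in 10 promoters; Nnt was not matched. The core was searched as TGACNNNGC on both strands, and it was found in 3 of the 10 promoters, against 12.4% of all 32851 mouse promoters. Each line gives 60 bases on the gene's own strand, 5′ to 3′, with the match in capitals.
Me1, chr9:86695887-86695946, minus strand: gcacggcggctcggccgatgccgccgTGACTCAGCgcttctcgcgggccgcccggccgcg
G6pdx, chrX:74428904-74428963, minus strand: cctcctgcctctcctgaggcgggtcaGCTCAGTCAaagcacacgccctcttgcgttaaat
Pgd, chr4:149166046-149166105, minus strand: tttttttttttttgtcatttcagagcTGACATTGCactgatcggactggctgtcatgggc
In Me1 the match begins 6 bases upstream of the start and reads along the gene. In G6pdx it begins 57 bases upstream and lies on the opposite strand, so the printed letters are its reverse complement. In Pgd it begins 3 bases downstream of an alternative RefSeq start that lies inside the gene. The Pgd match thus lies in transcribed sequence and not upstream of a start, and the count of 3 includes it. The window of the other Pgd start, chr4:149166656-149166955, held no match. The motif AAGGTCA, bound by the steroidogenic factor NR5A1, was found on neither strand of the 10 promoters, against 4.72% of all promoters. A match is a description of the letters in this window and not a measurement of binding.

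The isocitrate dehydrogenases had the largest fitted differences of the 6 tested genes in sections. Idh1 (chr1:65158616-65186500, minus strand, GRCm38) stood at 93.6, 61.2 and 68.7 CPM in the wild-type sections and at 567.5, 859 and 522 CPM in the knockout sections. Every knockout section was far above every wild-type section, and the summed counts were 775 against 102. Idh1 rose by 2.53 ± 0.48 (log2, SE; edgeR adjusted p = 6.90e-07), and the ratio of pooled CPM was 8.54 with an exact 95% interval of 6.94 to 10.6, which covers counting error only. In wild-type Leydig-targeted libraries Idh1 stood at 36.4, 112 and 0 CPM, from 2, 3 and 0 counts. The knockout Leydig-targeted libraries held 943, 1235 and 789 CPM, from 50, 49 and 12 counts. Those groups did not overlap either, and Idh1 rose by 3.88 ± 0.76 (edgeR adjusted p = 1.75e-05), with a pooled ratio of 18.04 (7.50 to 56.7). That difference was 3.23 without wild-type Leydig-targeted replicate 1 and 4.68 without replicate 2, with adjusted p-values of 0.00665 and 9.85e-05.

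Idh2 (chr7:80094846-80115392, minus strand) was a low-count gene. It had 2, 2 and 3 counts in the wild-type sections and 28, 29 and 18 in the knockout sections, which is 3.53, 3.83 and 12.1 CPM against 58.9, 73.9 and 55.9 CPM. The section groups did not overlap. Idh2 rose by 2.86 ± 0.66 in sections (edgeR adjusted p = 4.94e-05), with a pooled ratio of 12.04 (5.56 to 31.0). With limma-trend it was not called (adjusted p = 0.0678). In Leydig-targeted libraries 2 counts stood in wild-type replicate 1 and 0 in the other wild-type libraries. The knockout libraries had 4, 6 and 2 counts, or 75.5, 151 and 132 CPM, all above the wild type. With a log2 difference of 2.08 ± 1.16 (edgeR adjusted p = 0.171) and a pooled ratio of 4.88 (1.09 to 44.9), Idh2 was not called there. Its interval includes the fold seen in sections.

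Me1 (chr9:86581371-86695953, minus strand) gave the most counts of the 8 genes in every group. The wild-type sections stood at 593, 409 and 339 CPM and the knockout sections at 1963, 1540 and 994 CPM, with no overlap. Me1 rose by 1.16 ± 0.46 (edgeR adjusted p = 0.0205), the smallest difference of the 6 tested genes, with a pooled ratio of 3.29 (3.01 to 3.61). The call rested on few libraries: the adjusted p was 0.118 without wild-type section replicate 3, 0.168 without knockout section replicate 1 and 0.0506 without knockout section replicate 2. It was 0.0515 with a lower expression filter (minimum count 3 in place of 10) and 0.0530 with limma-trend. Leydig-targeted libraries stood at 419, 484 and 841 CPM in wild type, from 23, 13 and 5 counts. In the knockout they stood at 2283, 2494 and 1512 CPM, all higher. Me1 rose by 1.98 ± 0.54 (edgeR adjusted p = 0.00269), with a pooled ratio of 4.82 (3.45 to 6.88). Without wild-type Leydig-targeted replicate 1 the difference was 1.73 with an adjusted p of 0.0571.

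G6pdx, of the oxidative branch of the pentose phosphate pathway, was also higher in knockout sections. G6pdx (chrX:74409483-74429194, minus strand), its first and rate-limiting enzyme, stood at 70.6, 21.0 and 48.5 CPM in wild-type sections. In knockout sections it stood at 168, 89.2 and 249 CPM, with the lowest knockout library close above the highest wild-type one. G6pdx rose by 1.31 ± 0.44 (edgeR adjusted p = 0.00564), with a pooled ratio of 3.48. The difference was 2.10 without wild-type section replicate 1, and without knockout section replicate 3 it was 0.91 with an adjusted p of 0.113. The adjusted p was 0.106 with DESeq2 and 0.462 with limma-trend. In Leydig-targeted libraries wild type had 2, 0 and 0 counts of G6pdx and the knockout 3, 11 and 0, so the groups overlapped. It was not called there (2.27 ± 1.12, edgeR adjusted p = 0.116). G6pdx lies within the span of Ikbkg on the opposite strand, which had 47 counts in all 12 libraries, and no source used here states a strand setting for the counting. Its autosomal copy G6pd2 matched 90.7% of the bases in an alignment of 508 bases and had 7 counts in all, so reads shared between the copies are uncertain.

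Pgd (chr4:149149991-149166771, minus strand), the other NADPH-forming enzyme of the branch, missed the expression filter but not the counts. It had 7, 4 and 3 counts in wild-type sections and 27, 29 and 14 in knockout sections, or 12.4, 7.65 and 12.1 CPM against 56.7, 73.9 and 43.5 CPM. The groups did not overlap, and the pooled ratio was 5.62 (3.14 to 10.8). With the minimum count lowered to 3, Pgd was tested and was higher by 1.77 ± 0.57 (edgeR adjusted p = 0.00522). Its wild-type libraries alone would not have passed that lower filter either. Pgd entered through the knockout libraries where it was high, so this call is partly set by the filter. In Leydig-targeted libraries it had 1 count in wild type and 6 in the knockout (ratio 4.88, 0.592 to 224), which leaves no difference detectable at this depth. Pgls, the lactonase that acts between G6pdx and Pgd, was not tested; it had 26 counts in wild-type and 32 in knockout sections, with overlap and a ratio of 1.38 (0.798 to 2.42).

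Tkt and Taldo1, of the non-oxidative branch, were higher in knockout sections. Tkt (chr14:30548359-30574720, plus strand) stood at 15.9, 9.57 and 24.2 CPM in wild-type and 67.3, 53.5 and 118 CPM in knockout sections, without overlap. Tkt rose by 1.76 ± 0.53 (edgeR adjusted p = 0.00220), with a pooled ratio of 5.11. With limma-trend it was not called (adjusted p = 0.177). In Leydig-targeted libraries the wild type had 1, 0 and 0 Tkt counts and the knockout 9, 4 and 3. Those knockout libraries stood at 170, 101 and 197 CPM, above the 18.2 CPM that 1 count gave in the wild type. Tkt was called higher there (3.41 ± 1.27, edgeR adjusted p = 0.0297), and the ratio of 16 to 1 pooled counts was 13.0 with an interval of 2.02 to 545. This call was lost when 1 library was left out: the adjusted p was 0.116, 0.0938 and 0.0765 without wild-type Leydig-targeted replicates 1, 2 and 3, 0.0928 and 0.0715 without knockout Leydig-targeted replicates 1 and 3, and 0.0573 without wild-type section replicate 1. The fitted difference without wild-type Leydig-targeted replicate 1, which leaves that group with 0 counts, was 7.62.

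Taldo1 (chr7:141392199-141402968, plus strand) was the most even of the 6 tested genes among knockout sections. It stood at 40.6, 28.7 and 40.4 CPM in wild-type sections and at 214, 191 and 177 CPM in knockout sections. Taldo1 rose by 1.84 ± 0.45 (edgeR adjusted p = 1.43e-04), with a pooled ratio of 5.48. With limma-trend it was not called (adjusted p = 0.147). In Leydig-targeted libraries the wild type had 3, 0 and 0 Taldo1 counts and the knockout 6, 4 and 4, and every knockout library was higher in CPM. That difference was not called (1.75 ± 1.02, edgeR adjusted p = 0.195; pooled ratio 3.79, 1.06 to 20.6).

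Nnt (chr13:119335448-119408997, minus strand) was the gene with overlapping sections. It stood at 15.9, 1.91 and 12.1 CPM in wild-type sections, from 9, 1 and 3 counts, and at 12.6, 15.3 and 12.4 CPM in knockout sections, from 6, 6 and 4 counts. The pooled ratio was 1.38 with an interval of 0.624 to 3.13, so no difference was detectable at this depth. In Leydig-targeted libraries it had 3 counts in wild-type replicate 1 and none in the other 5 libraries. The annotation holds a second gene model also named Nnt at this place, which has no row in the count table, so reads shared with it are uncertain.

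**Figure D2:**
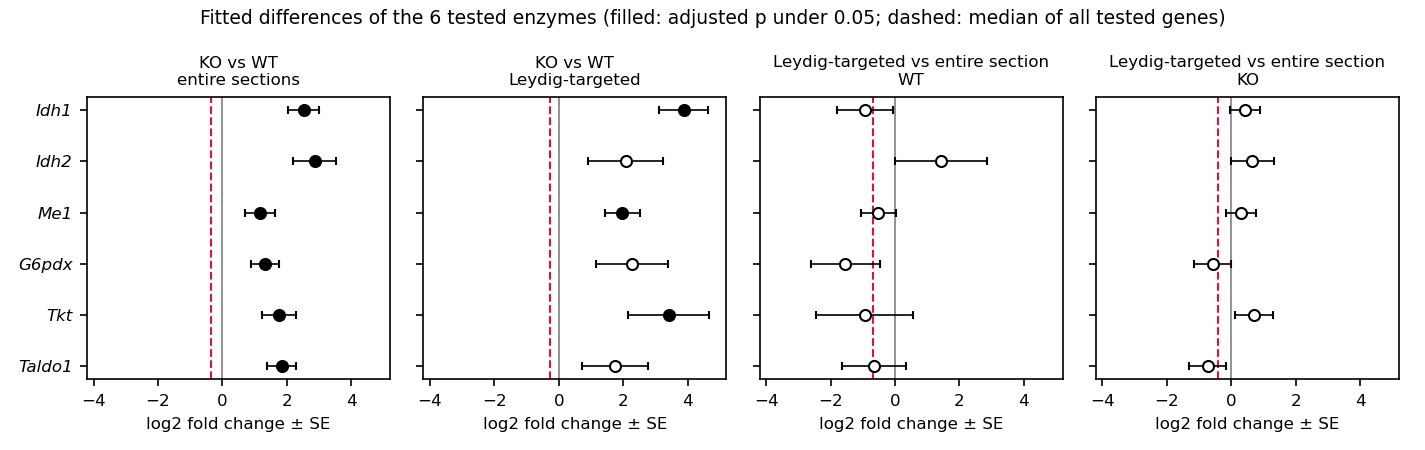
Fitted log2 differences of the 6 tested genes in each comparison (points) with 1 SE either side (lines); filled points passed an adjusted p under 0.05 and the dashed line is the median of all tested genes. All 6 section differences between genotypes are above 0 and called (4 of them lie below 0 when libraries are scaled to Leydig marker counts), and the differences between Leydig-targeted libraries and entire sections lie on both sides of 0 with none called.

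Sections of knockout testis also held a larger share of Leydig and Sertoli markers than wild-type sections, so each gene was set against the Leydig marker counts of its own library. Me1 had 142, 209 and 86.4 counts per 1000 Leydig marker counts in wild-type sections and 91.6, 96.4 and 48.3 in knockout sections, which overlapped, with a lower mean in the knockout (78.8 ± 26.5 against 146 ± 61.4, SD, n = 3). G6pdx had 13.3 ± 3.22 in wild-type and 8.50 ± 3.30 in knockout sections, and Taldo1 had 11.6 ± 2.69 and 10.2 ± 1.69. Idh1 stood the other way, with 22.5, 31.3 and 17.5 per 1000 in wild-type sections and 26.5, 53.8 and 25.4 in knockout sections, again overlapping. Between sections of the same replicate number, Idh1 was higher in the knockout in 3 of 3, and Me1, G6pdx, Tkt and Nnt were lower in 3 of 3. Idh2, Pgd and Taldo1 went both ways. The share of all genes that were lower in 3 of 3 was not computed. The labels do not state that replicate numbers pair libraries, and no paired test was run on these values. On this scale 0 of the 6 genes passed the test in sections, and the fitted differences were 0.57 for Idh1, 0.95 for Idh2, -0.89 for Me1, -0.68 for G6pdx, -0.23 for Tkt and -0.16 for Taldo1. All tested genes together had a median of -2.37 on this scale, with 23 called higher and 3778 lower. Relative to the median of all tested genes, the 6 genes lay 1.48 to 3.32 higher on the Leydig marker scale and 1.51 to 3.21 higher on the usual scale. A change of scaling moves all genes and their median nearly alike. The likeness of these ranges is therefore set in advance and gives no separate support.

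In Leydig-targeted libraries Idh1 was the 1 gene of the 6 that passed the test on the Leydig marker scale. It had 4.37, 7.71 and 0 counts per 1000 Leydig marker counts in wild type and 27.7, 30.8 and 24.0 in the knockout, with no overlap. The fitted difference was 2.32 (edgeR adjusted p = 0.0213), where 36 of all tested genes were higher and 2235 lower. Me1 had 61.9 ± 35.8 in wild type and 58.4 ± 11.0 in the knockout (0.17, adjusted p = 0.867). Tkt had 2.18, 0 and 0 in wild type and 4.98, 2.51 and 6 in the knockout (1.88, adjusted p = 0.288). The other Leydig-targeted values were 1.46 ± 2.52 and 3.33 ± 0.97 for Idh2, 1.46 ± 2.52 and 2.85 ± 3.60 for G6pdx, and 2.18 ± 3.78 and 4.61 ± 2.96 for Taldo1, with none called.

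**Figure D3:**
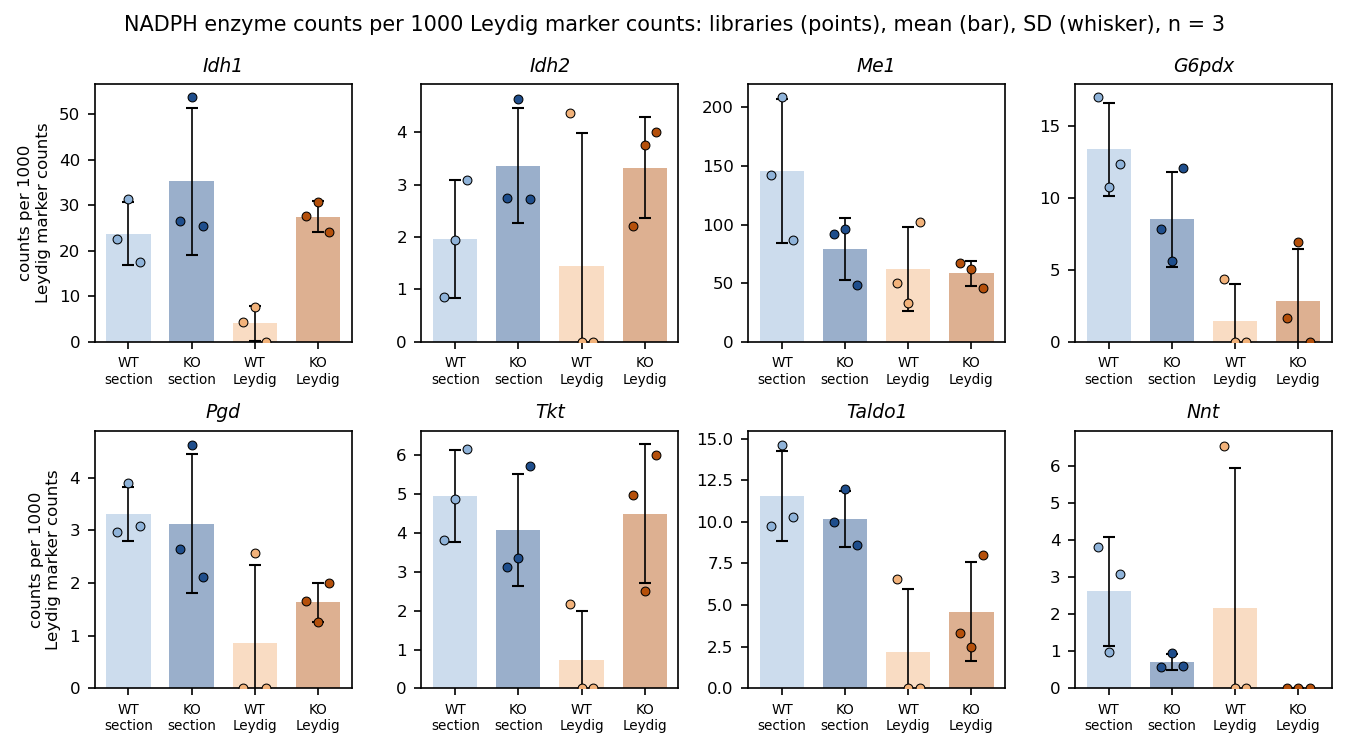
Counts of each gene per 1000 Leydig marker counts of the same library, on linear axes from 0; points are libraries, bars are means and whiskers are 1 SD (n = 3), which stop at 0 where the SD is larger than the mean. Idh1 in Leydig-targeted libraries separates knockout (24.0 to 30.8) from wild type (0 to 7.71), whereas Me1 overlaps between genotypes in both kinds of library.

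The make-up of the 8-gene sum, which needs no scaling between libraries, was also compared. Idh1 gave 11.1, 11.3 and 12.3% of the summed counts of the 8 genes in wild-type sections and 18.3, 29.7 and 24.0% in knockout sections. In Leydig-targeted libraries it gave 5.56, 17.6 and 0% in wild type, of sums of 36, 17 and 5 counts, and 25.5, 28 and 26.7% in the knockout. Neither pair of groups overlapped. The exact 2-sided permutation test gave p = 0.1 for each, which does not pass 0.05 and is the smallest value that 3 against 3 libraries allow. Me1 gave 68.8 ± 7.34% of the sum in wild-type and 54.0 ± 8.72% in knockout sections, which overlapped (exact unpaired permutation p = 0.2). Between sections of the same number, which no label states to be paired, Me1 was lower in the knockout in 3 of 3. Idh1, Idh2, Tkt and Taldo1 were higher in 3 of 3, and G6pdx, Pgd and Nnt went both ways. For G6pdx the section shares were 6.97 ± 2.69% and 6.64 ± 4.32%. These shares were computed for all 8 genes, in 16 comparisons, after their levels had been seen, and no p was below 0.1.

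Within a genotype, Leydig-targeted libraries were compared with entire sections. In wild type 0 of the 6 genes differed, where 15.6% of all tested genes were called in either direction. Me1 stood at 447 ± 131 CPM in wild-type sections and 581 ± 227 CPM in wild-type Leydig-targeted libraries (-0.52 ± 0.53 after scaling, edgeR adjusted p = 0.526), and these overlapped. The scaling factors that turn CPM into fitted values ran from 0.567 to 0.772 in wild-type sections and from 0.830 to 2.28 in wild-type Leydig-targeted libraries, the highest in replicate 3. Idh1 stood at 74.5 ± 16.9 and 49.4 ± 57.0 CPM (-0.93 ± 0.86, edgeR adjusted p = 0.478). The fitted differences of Me1 and of Idh2 in this comparison changed sign with the scaling or the test. In the knockout 0 of 6 differed, where 5.44% of all tested genes were called. Idh1 stood at 650 ± 183 CPM in knockout sections and 989 ± 226 CPM in knockout Leydig-targeted libraries (0.43 ± 0.47, edgeR adjusted p = 0.676). Me1 stood at 1499 ± 486 and 2097 ± 517 CPM (0.30 ± 0.46, edgeR adjusted p = 0.790), and Tkt at 79.6 ± 34.0 and 156 ± 49.7 CPM (0.70 ± 0.60, edgeR adjusted p = 0.557). None of the 6 had an unadjusted p under 0.05 in either genotype, and neither DESeq2 nor limma-trend called any. Between the same libraries the median of the 8 Leydig markers was 1.75 in wild type (4 of 8 higher) and 0.64 in the knockout (0 of 8), and that of the 6 genes was -0.79 and 0.37; the difference between the lists was not tested. With libraries scaled to the Leydig marker counts, Idh1 (-2.10, adjusted p = 0.0362) and G6pdx (-2.61, adjusted p = 0.0330) were called lower in wild-type Leydig-targeted libraries than in wild-type sections. On that scale 2534 of all tested genes were lower and 68 higher, with a median of -1.83, and relative to it Idh1 lay at -0.27 and G6pdx at -0.78.

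Whether the knockout difference itself depended on the irradiated area was tested as an interaction in the same fit. It called 0 of the 6 genes, where 0.328% of all tested genes were called. The interaction was 1.36 ± 0.98 for Idh1 (edgeR adjusted p = 0.679), and no gene of the 6 had an unadjusted p under 0.05. The genes called in sections but not in Leydig-targeted libraries (Idh2, G6pdx and Taldo1) are therefore not shown to differ between the areas.

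Markers of other cell types moved between the same libraries, and their part in the results was not tested. In sections 8 of 8 tested Leydig markers, 7 of 8 Sertoli markers and 4 of 4 macrophage markers were higher in the knockout. Of all tested genes 22.6% were higher there. In Leydig-targeted libraries 5 of 8 Leydig markers, 0 of 8 Sertoli markers and 3 of 4 macrophage markers were higher, against 7.55% of all tested genes. The macrophage markers, and at least Cyp11a1 of the Leydig markers, could not have passed the filter on wild-type libraries alone. These marker counts are thus partly set by the filter. Sertoli markers made up 0.219 to 0.446% of wild-type and 1.18 to 1.35% of knockout sections, and 0.219 to 0.344% and 0.487 to 0.817% of Leydig-targeted libraries. Macrophage markers (7 genes) made up 0.00555 to 0.0162% and 0.0479 to 0.202% of sections. In Leydig-targeted libraries they made up 0 to 0.00547% in wild type, with H2-Aa, Adgre1 and C1qa at 0, and 0.0227 to 0.200% in the knockout, with Adgre1 at 0.

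The other enzymes of the pathways were read from lists of known function. Among the genes named below, H6pd, Aldh1l1, Mthfd2, Idh3g, Nampt, Aco1, Dhcr7 and Fdxr had too few wild-type counts to pass the filter without knockout libraries. Their calls of higher in the knockout are therefore partly set by the filter. Hk1, Txnrd3 and Prps1l1 had too few knockout counts to pass it without wild-type libraries. Their calls of lower in the knockout are partly set by the filter in the same way. Of 14 further pentose phosphate genes 2 were tested. H6pd, the glucose-6-phosphate dehydrogenase of the endoplasmic reticulum, rose by 2.18 ± 0.52 in sections (edgeR adjusted p = 9.61e-05). It also rose in Leydig-targeted libraries, by 2.86 ± 1.03 (edgeR adjusted p = 0.0250), on 22 against 2 counts. Prps1l1, a testis form of phosphoribosyl pyrophosphate synthetase, had 544 counts in wild-type and 2 in knockout sections, a ratio of 242 (66.7 to 2004). In Leydig-targeted libraries it had 10 counts in wild type and 0 in the knockout, and the groups overlapped. That ratio of wild type to knockout was 4.10 with the 0 set to 3 counts. The others of the list did not pass the filter. Among those of the non-oxidative branch, the ratio of knockout to wild-type sections was 1.19 (0.567 to 2.52) for the epimerase Rpe, 1.03 (0.412 to 2.55) for the isomerase Rpia and 1.62 (0.642 to 4.30) for Tktl1, each with overlap. The transketolase-like gene Tktl2 had 33 counts in wild-type and 4 in knockout sections, a ratio of 0.136 (0.0351 to 0.383).

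Among 8 other NADP-linked dehydrogenases 3 were tested, and in sections Aldh1l1, a folate enzyme, rose by 1.999 ± 0.67 (edgeR adjusted p = 0.00558) and Glud1, glutamate dehydrogenase, by 1.28 ± 0.45 (edgeR adjusted p = 0.00847). Mthfd2, a mitochondrial folate enzyme, was not called in sections (0.75 ± 0.50, edgeR adjusted p = 0.182). It had 9 against 0 counts in Leydig-targeted libraries, where it was called higher. The ratio there was 2.44 with the 0 set to 3 counts. The NAD-linked isocitrate dehydrogenase, which makes NADH and not NADPH, had 2 tested subunits that did not move alike in sections. Idh3g rose by 3.11 ± 0.52 (edgeR adjusted p = 1.05e-08), and Idh3b was not called (-0.63 ± 0.43, edgeR adjusted p = 0.193). In Leydig-targeted libraries Idh3g was called higher on 16 against 1 counts. Of 9 genes of NADP supply, Nampt rose by 1.45 ± 0.52 in sections (edgeR adjusted p = 0.0107), and Nadk, NAD kinase, was not called (0.93 ± 0.52, edgeR adjusted p = 0.104). Neither was called in Leydig-targeted libraries.

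The genes that feed citrate and malate to these enzymes moved with them in part. Of 12 such genes 7 were tested, and 4 were higher and 0 lower in each comparison of genotypes. Of all tested genes 22.6% were higher and 39.1% lower in sections, and 7.55% and 20.9% in Leydig-targeted libraries. In sections Mdh1, cytosolic malate dehydrogenase, rose by 2.28 ± 0.49 (edgeR adjusted p = 9.66e-06), Acly, ATP citrate lyase, by 1.90 ± 0.47 (edgeR adjusted p = 1.34e-04) and Got2 by 1.43 ± 0.45 (edgeR adjusted p = 0.00311), with Got1 as the fourth. In Leydig-targeted libraries Mdh1 rose by 2.32 ± 0.72 (edgeR adjusted p = 0.00803), Acly by 1.91 ± 0.66 (edgeR adjusted p = 0.0183) and Cs by 1.85 ± 0.67 (edgeR adjusted p = 0.0262). Aco1, the cytosolic aconitase that makes the substrate of Idh1, had 17 against 0 counts there and was called higher. The ratio there was 4.60 with the 0 set to 3 counts. In sections Aco1 was not called (1.20 ± 0.58, edgeR adjusted p = 0.0590).

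Of 8 genes of glucose entry 3 were tested, and in each comparison of genotypes 2 were lower and 0 higher. Of all tested genes 39.1% were lower in sections and 20.9% in Leydig-targeted libraries. In sections Hk1, a hexokinase, was lower (-4.44 ± 0.53, edgeR adjusted p = 3.32e-16), as was the glucose transporter Slc2a3 (-4.26 ± 0.52, edgeR adjusted p = 2.05e-15). Both were lower in Leydig-targeted libraries too, with -3.53 ± 0.85 for Hk1 (edgeR adjusted p = 5.56e-04) and -2.90 ± 0.76 for Slc2a3 (edgeR adjusted p = 0.00163). Gpi1, glucose-6-phosphate isomerase, was called in neither (-0.18 and -0.06).

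Of 20 genes that use NADPH, 8 were tested, and in sections 4 were higher and 1 lower. Of all tested genes 22.6% were higher and 39.1% lower there. Dhcr7 (2.53 ± 0.57, edgeR adjusted p = 3.28e-05) and Sc5d (2.47 ± 0.50, edgeR adjusted p = 3.55e-06), of cholesterol synthesis, rose, as did Fdxr, which passes electrons from NADPH to the mitochondrial steroidogenic P450 enzymes, and Fasn, fatty acid synthase. Txnrd3, a testis thioredoxin reductase, was lower (-4.05 ± 0.51, edgeR adjusted p = 2.66e-14). In Leydig-targeted libraries Txnrd3 was the 1 gene of the 8 called, on 1 against 16 counts, and the groups overlapped. Of all tested genes 7.55% were higher and 20.9% lower in that comparison. Fdxr was also higher in Leydig-targeted libraries than in sections, by 3.11 ± 0.85 in wild type (edgeR adjusted p = 0.00466) and by 1.78 ± 0.56 in the knockout (edgeR adjusted p = 0.0341), a comparison in which none of the 6 NADPH-producing and pentose phosphate genes tested was called.

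**Figure D4:**
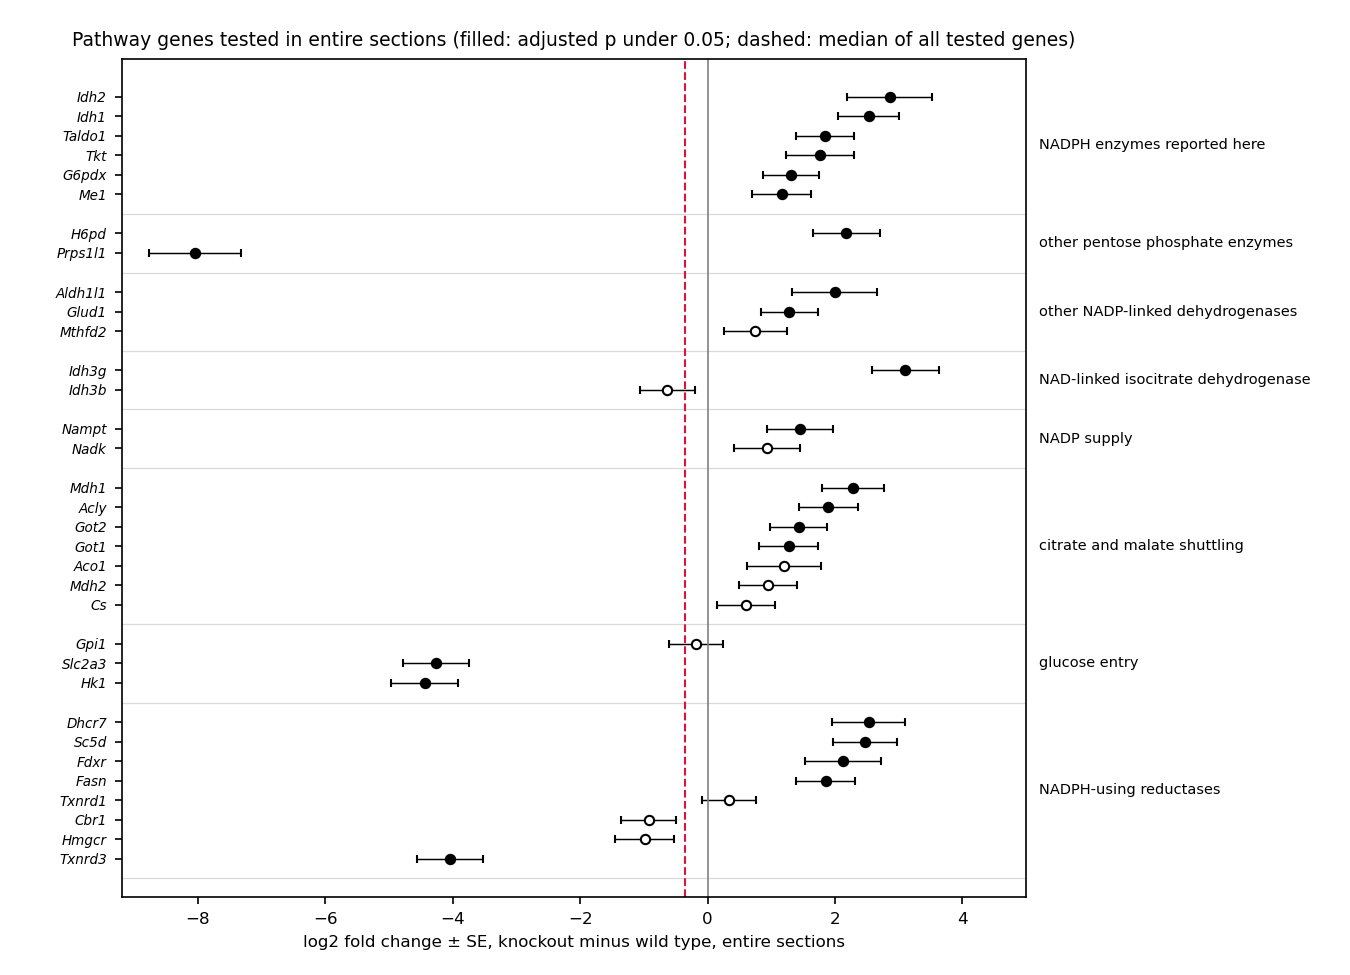
Fitted log2 difference between knockout and wild-type sections for every tested gene of the pathway lists, with 1 SE either side; filled points passed an adjusted p under 0.05 and the dashed line is the median of all tested genes. The 6 tested genes described above all lie above 0, though Me1, G6pdx, Tkt and Taldo1 do not when scaled to Leydig marker counts, while Hk1, Slc2a3, Txnrd3 and Prps1l1 lie more than 4 log2 units below it.

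The 6 tested genes varied together across the 12 libraries, with Pearson r from 0.510 (Idh2 with G6pdx) to 0.907 (Idh1 with Me1) over 15 pairs of log2 CPM values. These points share the 4 groups and their depths, so the values describe the pattern and carry no test. By the same measure the genes most like Idh1 were Spon1 (0.978), Mavs (0.973) and Nr5a1 (0.971), the last a Leydig marker. Idh2 was most like Nudt19 (0.962), Rnase4 (0.950) and Csdc2 (0.948), and Me1 most like Pdlim2 (0.958), Plxdc2 (0.940) and AU020206 (0.940). The genes nearest to G6pdx were Man2b1 (0.972), Sft2d2 (0.971) and Smim19 (0.964). Tkt was most like Acadsb (0.961), Snx21 (0.956) and Nudt19 (0.949), and Taldo1 most like Lamb2 (0.993), Fryl (0.981) and Eid1 (0.981).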

How the data were processed

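The deposited values are raw counts per gene, and the authors applied no normalization. Reads went through UMI-tools and Trim Galore, then HISAT2 on GRCm38 and featureCounts, per the submitters' processing notes; tool versions and strand setting: not given in the sources used here. Positions came from GENCODE M21. In R 4.3.3, edgeR 4.0.16 (robust quasi-likelihood, TMM scaling, 1 coefficient per group) tested 5182 genes kept at about 66.1 CPM in at least 3 libraries (minimum count 10); calls are at an adjusted p under 0.05. The fit was tested on simulated counts. Ratios of pooled CPM have exact 95% intervals, which cover counting error only. A group at 0 was set to a floor of 3 counts over the group. A ratio from that floor has no interval and is not a lower bound.

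The 8 genes, the pathway lists and the marker lists were chosen with earlier results of these data known. From each pathway list up to 3 tested genes with the smallest unadjusted p in a comparison are named, and for each tested gene the 3 most alike by Pearson r of log2 CPM (prior count 2), without predicted Gm and Rik models; Got1, Fdxr and Fasn beyond this were named after their values were seen. Same-numbered section libraries deviated weakly together (r 0.132 to 0.243), and Leydig-targeted libraries did not (-0.00629 to 0.00818). The labels state no pairing. Section totals also fell with the number, from 566527 to 522652 and 247539 in wild type and from 475764 to 392164 and 321771 in the knockout. Why same-numbered sections deviated together was not tested. Alternatives were other scalings, filters and tests (DESeq2 1.42.0, limma 3.58.1), a replicate block and leaving out each library with the tested genes kept. The marker lists not shown elsewhere were compared in knockout against wild-type sections, where 22.6% of all tested genes were higher and 39.1% lower. There 1 of 3 peritubular myoid markers was higher and 0 lower, and 2 of 4 spermatogonia markers were higher and 2 lower. Of the spermatocyte and spermatid markers 0 of 5 and 0 of 8 were higher and 5 and 8 lower. At least Tnp1, Tnp2, Acr, Tssk1 and Crisp2 could not have passed the filter on knockout libraries alone, so these counts of lower are partly set by it. None was called of 1 endothelial and 1 red blood cell marker.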

Additional observations from a re-analysis of the deposited data

How the results depend on the processing

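In sections 6 genes were called, 0 with libraries scaled to Leydig marker counts and 1 (Idh1) with limma-trend; in Leydig-targeted libraries the 3 calls became 1 (Idh1) with Leydig marker scaling and 5 with limma-trend; and the 0 in Leydig-targeted against entire wild-type libraries became 2 with Leydig marker scaling, where 2534 of all tested genes were lower and 68 higher. Leaving out 1 library gave 5 to 6 calls in sections, 1 to 3 in Leydig-targeted libraries (1 without wild-type Leydig-targeted replicate 1) and 0 to 0 in the other comparisons. In sections limma-trend gave adjusted p-values of 0.0678 for Idh2, 0.0530 for Me1, 0.462 for G6pdx, 0.177 for Tkt and 0.147 for Taldo1; the cause was not tested. Library size alone moved the median of all tested genes in sections from -0.35 to 0.22. It moved the calls from 1170 higher and 2024 lower to 1861 and 1707. The 6 genes lay 1.51 to 3.19 above that median, a distance that scaling hardly changes because it moves all genes nearly alike. With limma-trend 160 were higher and 1129 lower in sections, and in Leydig-targeted libraries 466 and 592 in place of 391 and 1085, or 69 and 523 without wild-type Leydig-targeted replicate 1.

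Directions reversed with Leydig marker scaling in sections for Me1 (-0.89), G6pdx (-0.68), Tkt (-0.23) and Taldo1 (-0.16), and in knockout Leydig-targeted libraries against sections for Idh1 (-0.34), Idh2 (-0.087) and Me1 (-0.42). In the latter, Idh1 (-0.021) and Me1 (-0.15) also reversed with no filter. In wild-type Leydig-targeted libraries against sections, Me1 was 0.15 with library size alone and 0.074 with those groups alone, Idh2 was -0.10 with limma-trend, and Idh2 ran from -3.66 to 1.97 with 1 library left out. In the interaction, Taldo1 was 0.40 with Leydig marker scaling, 0.17 with no filter, 0.057 with minimum count 3 and 1.05 with limma-trend, and Idh2 was 0.66 with limma-trend. With 1 library left out the interaction ran from -0.57 to 5.79 for G6pdx, -1.58 to 4.03 for Idh2 and -0.96 to 5.28 for Taldo1. None of these reversed values was called. The replicate block left 6 calls in sections, 3 in Leydig-targeted libraries and 0 in the other comparisons, and changed no call of the 6 genes (Me1 in sections 1.15, adjusted p = 0.0383). Depth limits the wild-type Leydig-targeted group most, where Idh1 rested on 5 counts and Tkt on 1.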
